A study of Mus musculus with 17 samples.

Results

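Libraries titled TRMs and MDMs, for resident and monocyte-derived macrophages, of one tumor genotype were compared here across genes. The MDM libraries also held neutrophil genes at high levels, as given below. The comparison set the 2 libraries titled TRMs_KL against the 2 libraries titled MDMs_KL, 4 of the 17 libraries of the series, which also profiled tumor cells, monocytes and CD8+ T cells by bulk RNA sequencing. Genes were joined by name between the deposited TRM and MDM tables, and those with at least 1 RPKM (reads per kilobase of gene and per megaread counted) in at least 2 of the 4 libraries were tested, which gave 10401 genes of 12147 names found in both tables. Names repeated in a table or turned into dates were dropped. All 4 libraries came from KL mice, which carry Lkb1fl/fl and in which Ad-Cre given through the nose starts lung tumors and deletes Lkb1, and which received tamoxifen before lungs were taken 10 weeks after Ad-Cre. The KL mice carried no modified Gpx4 allele. A second genotype, KLG4, adds Gpx4m/m to the alleles of KL, a Gpx4 allele that tamoxifen deletes in cells reached by Cre, and its 2 TRM and 2 MDM libraries were used below only as a second comparison of the same populations. Ad-Cre reaches any airway or alveolar cell it infects, so which cells lost Lkb1 is not fixed by a promoter. Populations were separated by flow cytometry, and the gates were not given in the sources used here. Antibodies to CD11b, CD11c, Siglec-F, Ly6C and Ly6G were among those listed, so Itgam, Itgax, Siglecf and the Ly6 genes may have been part of a gate and are given as a description of it. For the macrophage libraries, the sources used here do not say whether a replicate was 1 animal or a pool, so p-values measure the spread between these libraries.

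Alveolar macrophages, the main resident macrophages of the airspaces, are seeded around birth and renew themselves in place. They depend on GM-CSF and TGF-beta, which sustain the nuclear receptor PPARG, and they clear surfactant lipid and inhaled particles. Monocytes that enter a tumor differentiate into macrophages under CSF1 and typically carry CCR2, CX3CR1, C1q and apolipoprotein E. Neutrophils are a separate, short-lived lineage that depends on G-CSF and carries S100A8, S100A9, CXCR2 and granule proteins.

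Library composition differed between the KL libraries of the populations. The depth, recovered from the steps of the values, was 10.0 and 9.14 megareads in the TRM libraries and 18.6 and 10.4 megareads in the MDM libraries. Reads of mitochondrially encoded genes, counted with those of their nuclear copies, made up 31.5% and 22.3% of TRM libraries 1 and 2 and 2.75% and 7.31% of MDM libraries 1 and 2. One nuclear copy, Gm10925, held 38.8% and 30.2% of the summed RPKM of the joined genes outside mt- genes in TRMs and 3.79% and 10.9% in MDMs. In KLG4 the read shares were 2.95% and 5.78% in TRMs and 0.92% and 1.33% in MDMs. Gm10925 held 4.21% and 9.39% of the sum there in TRMs and 1.25% and 1.96% in MDMs. The highest shares were thus those of the KL TRM libraries. The values given below were rescaled to a common sum over the joined genes without mt- genes, a sum that still holds Gm10925, and they put the median log2 difference (TRMs minus MDMs) of all genes at −0.42. Values as deposited put that median at 0.00, quantile scaling at 0.18, a trimmed-mean scaling at 0.03 and a common sum that also leaves out the nuclear copies at 0.23. A difference called relative below is the difference less the median of all genes, and calls are also given as those that passed in the same direction under all 5 scalings. Xist, which silences an X chromosome in females, stood at 0.257 and 0.501 RPKM as deposited in the TRM libraries and at 21.8 and 0.839 in MDM libraries 1 and 2. The Y-linked genes Ddx3y (10.3 and 11.8) and Eif2s3y (12.3 and 14.7), with Kdm5d and Uty, were in the TRM table alone. In KLG4, Xist was between 18.3 and 20.2 in all 4 libraries. Xist thus set MDM library 1 apart from the other 3, the Y-linked genes have no value in the MDM libraries, and the part of the animals' sex in the differences was not tested.

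The labels were checked against markers before the comparison. Macrophage genes were present in all 4 libraries: Cd68, a lysosomal glycoprotein, was at 143 and 189 rescaled RPKM in TRMs and at 143 and 134 in MDMs, and Adgre1, which encodes F4/80, was at 17.4 and 15.2 against 12.4 and 15.4. Neither passed the test (limma, adjusted p = 0.643 and 0.699). The MDM libraries, however, also held neutrophil genes at high levels. Of 12 neutrophil markers 8 were tested, and all 8 were higher in MDMs under each of the 5 scalings, against 23.1% of all genes on the common-sum scale and 10.8% under all 5 scalings. Without 1 library, 7 or 8 were. S100a9, a subunit of calprotectin, was at 159 and 106 in TRMs and at 25750.2 and 10606 in MDMs (log2 difference −6.99 ± 0.46 SE, limma adjusted p = 1.42e-06). Csf3r, the G-CSF receptor, was at 3.35 and 2.27 against 278 and 236, and Cxcr2, the receptor for neutrophil-attracting chemokines, at 2.51 and 0.655 against 111 and 69.3. Mmp9, Ly6g and Camp were listed in the MDM table alone, Ly6g at 7.32 and 5.52 RPKM as deposited, and Elane was in neither table. The neutrophil markers summed to 240.2 and 155 RPKM as deposited in TRMs and to 23787 and 10769 in MDMs. In the KLG4 libraries the sums were 120.0 and 92.1 in TRMs and 20184 and 18303 in MDMs, so the MDM libraries of both genotypes carried them.

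Markers of monocytes and monocyte-derived macrophages were less clear in the libraries titled MDMs_KL. Ccr2, the monocyte chemokine receptor, was at 1.59 and 9.83 rescaled RPKM in MDMs against 0.641 and 0.945 in TRMs. Ly6c2, the antigen that marks classical monocytes, was listed in the MDM table alone, at 0.904 and 0.211 RPKM as deposited. The 8 monocyte markers summed to 86.4 and 76.2 RPKM in TRMs and to 247 and 240 in MDMs. Markers of lung structural cells stood highest in MDM library 2: the alveolar type 2 (AT2) markers, surfactant genes among them, summed to 176 and 188 RPKM in TRMs and to 163 and 386 in MDMs, those of epithelium to 103 and 116 against 70.9 and 241, and those of fibroblasts to 16.3 and 23.0 against 18.8 and 105. Sums were 81.5, 79.6, 60.5 and 127 RPKM (TRM libraries 1 and 2, MDM libraries 1 and 2) for alveolar type 1 cells, 38.7, 72.3, 25.7 and 109 for club and ciliated cells, 24.4, 25.1, 32.9 and 64.3 for endothelium, 12.4, 9.75, 13.2 and 30.9 for cardiac and smooth muscle, and 16.6, 13.3, 44.7 and 53.2 for B and plasma cells. Eosinophil markers, Siglecf among them, summed to 19.9, 23.1, 9.59 and 12.96, dendritic cell markers to 11.6, 18.5, 12.98 and 14.8, erythroid markers to 4.49, 4.97, 8.85 and 5.26, mast cell and basophil markers to 0.27, 0.65, 1.38 and 1.31, and T and NK cell markers to at most 0.35. Among the genes of these lists that were tested, 2 of 9 alveolar type 2 genes, 1 of 8 alveolar type 1 genes, 2 of 6 endothelial genes, 3 of 3 B and plasma cell genes, 4 of 6 monocyte genes and 1 of 4 muscle genes were higher in MDMs, none of which except 1 endothelial, 1 B cell and 2 monocyte genes under all 5 scalings, and no gene of the other lists was called. Of all genes, 23.1% were higher in MDMs. Of 8 pan-leukocyte and macrophage genes, Lyz2 was higher in TRMs and Ptprc, Csf1r and Cd14 in MDMs. The names TRM and MDM are therefore used for the libraries as titled. The part of neutrophil RNA or of other cells in any difference below was not tested, and in bulk RNA fewer cells of a type and less RNA per cell cannot be told apart.

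**Figure D1:**
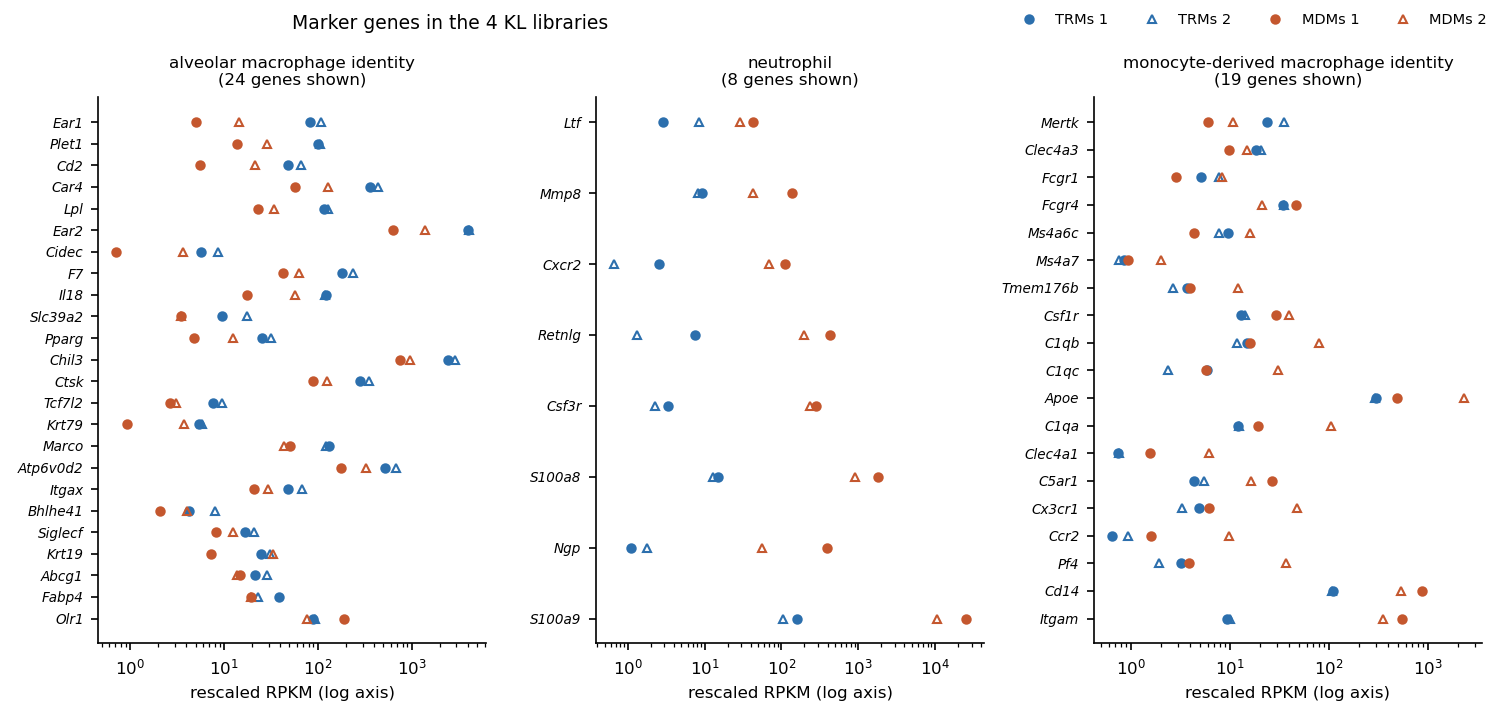
Rescaled RPKM on a log axis of marker genes, not of every gene tested, in the 4 KL libraries, 1 point per library, TRM and MDM libraries in different colors and the replicate numbers in different symbols. Neutrophil genes such as S100a9 (159 and 106 in TRMs, 25750.2 and 10606 in MDMs) separate the populations without overlap, whereas Ccr2 (9.83) and C1qa (105) are highest in MDM library 2.

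Bases upstream of the start are shown for a pair of alveolar macrophage ribonuclease genes and for 3 genes far to the MDM side, so that paralogs and neighbors can be compared. The windows hold 250 bases before the RefSeq start (GRCm38.p6), 5′ to 3′ on the gene's strand, with matches to 7 searched motifs in capitals. Ear1 (chr14:43819640-43819889, minus strand) and Ear2 (chr14:44102404-44102653, plus strand) stood for TRMs, S100a8 (chr3:90668821-90669070, plus strand), S100a9 (chr3:90695722-90695971, minus strand) and Slfn4 (chr11:83174936-83175185, plus strand) for MDMs.
Ear1: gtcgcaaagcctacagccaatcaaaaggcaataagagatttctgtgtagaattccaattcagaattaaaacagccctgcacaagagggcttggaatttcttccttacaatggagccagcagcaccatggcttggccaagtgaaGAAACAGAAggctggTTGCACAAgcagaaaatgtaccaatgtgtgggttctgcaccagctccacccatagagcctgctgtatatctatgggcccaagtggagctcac
Ear2: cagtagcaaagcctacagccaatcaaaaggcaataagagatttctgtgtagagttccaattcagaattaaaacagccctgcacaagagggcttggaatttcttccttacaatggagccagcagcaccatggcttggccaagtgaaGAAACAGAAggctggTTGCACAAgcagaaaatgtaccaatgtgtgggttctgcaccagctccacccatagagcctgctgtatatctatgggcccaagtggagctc
S100a8: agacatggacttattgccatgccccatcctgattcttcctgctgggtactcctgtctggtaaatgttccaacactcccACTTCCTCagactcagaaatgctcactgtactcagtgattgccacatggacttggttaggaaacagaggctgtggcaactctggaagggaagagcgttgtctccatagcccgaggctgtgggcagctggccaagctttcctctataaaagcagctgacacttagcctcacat
S100a9: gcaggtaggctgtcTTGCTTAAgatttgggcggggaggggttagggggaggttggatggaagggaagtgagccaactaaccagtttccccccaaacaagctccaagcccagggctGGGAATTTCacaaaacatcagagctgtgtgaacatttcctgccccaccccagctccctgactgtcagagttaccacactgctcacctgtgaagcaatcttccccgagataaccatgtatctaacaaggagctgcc
Slfn4: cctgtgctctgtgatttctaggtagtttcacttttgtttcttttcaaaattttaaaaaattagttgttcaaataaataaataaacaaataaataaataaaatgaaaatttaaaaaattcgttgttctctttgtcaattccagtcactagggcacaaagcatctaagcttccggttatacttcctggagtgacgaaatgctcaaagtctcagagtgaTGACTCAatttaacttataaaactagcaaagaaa
The Ear1 and Ear2 windows were identical in 246 of 252 aligned columns (97.6%). These windows lie before the start, and the transcripts of these paralogs were not compared. Whether their reads can be told apart was not tested, and their separate levels are uncertain. Both held TTGCACAA, a match to the C/EBP motif TTGCNNAA, and GAAACAGAA, a match to the interferon-response pattern GAAANNGAA. S100a9 held TTGCTTAA for C/EBP and GGGAATTTC for the NF-kB motif GGGNNTTTC, S100a8 held ACTTCCTC, which is GAGGAAGT on the other strand (ETS), and Slfn4 held TGACTCA for the AP-1 motif TGANTCA. The windows of Acod1, Car4 and Csf3r were searched too and are not shown: Acod1 held AGGTCA, and Car4 and Csf3r held no match. Matches describe the letters of these windows and say nothing of binding.

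Across genes, 2660 of 10401 differed between TRMs and MDMs (limma on log2(rescaled RPKM + 0.1), adjusted p under 0.05), and 3855 did at an unadjusted p under 0.05. Those higher in TRMs numbered 257 (2.47% of genes tested) and those higher in MDMs 2403 (23.1%). The split depended on the scaling: 407 against 1426 with values as deposited, 1131 against 1313 with quantile scaling, 595 against 1408 with trimmed-mean scaling and 659 against 1125 without the nuclear copies in the sum, so that between 9.66% and 46.3% of calls were higher in TRMs. Under all 5 scalings 221 genes (2.12%) were higher in TRMs and 1124 (10.8%) in MDMs. With the looser rule that the study used (unadjusted p under 0.05 and a change of 2-fold or more), 541 and 3079 genes passed. Single libraries mattered as well. Counts of list members without 1 library, given below, are to be read beside the counts over all genes that follow. Without TRM library 1 the counts were 16 and 742, without TRM library 2 they were 8 and 1429, without MDM library 1 they were 155 and 1665, and without MDM library 2 they were 856 and 2459.

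The genes furthest to the TRM side that the naming rule took included both lipid and surface-receptor genes. Predicted genes left out by that rule, Gm10718 (3.85), Gm10800 (3.53) and Gm21738 (3.51), had larger log2 differences. Ear1, an eosinophil-associated ribonuclease of alveolar macrophages, was at 83.3 and 108 rescaled RPKM in TRMs and at 5.04 and 14.5 in MDMs (3.45 ± 0.47 SE on the log2 scale, limma adjusted p = 2.42e-04). Fabp1, a fatty acid binding protein, was at 111 and 128 against 5.71 and 30.7, and Siglec1, the sialic acid receptor CD169, at 6.10 and 7.94 against 0.525 and 1.30. Acot1, an acyl-CoA thioesterase that releases free fatty acids, was at 9.19 and 9.99 against 1.26 in both MDM libraries. These genes were high in both TRM libraries and, apart from Acot1, lower in MDM library 1 than in MDM library 2. Slc9a4, a sodium-proton exchanger, was at 21.2 and 23.2 against 2.67 and 4.54, and Phgdh, the first enzyme of serine synthesis, at 54.0 and 56.2 against 4.86 and 19.7. The other 6 genes that the naming rule gave were Matn2, Cox6b2, Stac, Plet1os, Mfsd7c and Kazald1, with log2 differences between 2.71 (Matn2) and 2.50 (Kazald1). Plet1os overlaps Plet1 in antisense, and the libraries were made without strand, so reads of the pair cannot be told apart. All 12 were called under all 5 scalings. Ear1, Acot1 and Slc9a4 kept their call without any 1 library, Mfsd7c lost it without TRM library 2, and the other 8 lost it without TRM library 1 and without TRM library 2.

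Genes furthest to the MDM side differed by more. Mir6936, a microRNA gene left out by the naming rule, had the lowest value (−8.99). Slfn4, an interferon-inducible gene of the Schlafen family, was at 4.37 and 3.78 rescaled RPKM in TRMs and at 1679 and 554 in MDMs (−7.86 ± 0.47 SE, limma adjusted p = 1.32e-06). Hdc, which makes histamine, was at 3.06 and 1.501 against 303 and 261. Acod1, the enzyme that makes itaconate in activated myeloid cells, was at 13.6 and 5.79 against 1210.3 and 636. In all 3 the populations were far from overlapping. Adam8, a metalloprotease of leukocytes, was at 0.988 and 1.85 against 148 and 110.4, and Stfa2l1, a cysteine protease inhibitor of the stefin family, at 6.44 and 2.89 against 592 and 366. Slc2a3, the glucose transporter GLUT3, was at 0.046 and 0.565 against 61.7 and 79.7, where the lowest value stood on 4 reads, and Upp1, uridine phosphorylase, was at 0.085 and 1.32 against 149.8 and 32.5, the lowest on 2 reads. Rdh12, Asprv1, Trim30b, Sycp2 and Ifitm1 completed the 12, with log2 differences from −7.56 (Rdh12) to −6.32 (Ifitm1). Slfn4, Stfa2l1, Trim30b and Ifitm1 belong to families with close copies, so their own levels are uncertain. All 12 were called under all 5 scalings, and each kept its call in every fit without 1 library in which it was tested. Slc2a3 and Sycp2, under 1 RPKM in both TRM libraries, failed the filter without MDM library 1 and without MDM library 2 and were not tested there.

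**Figure D2:**
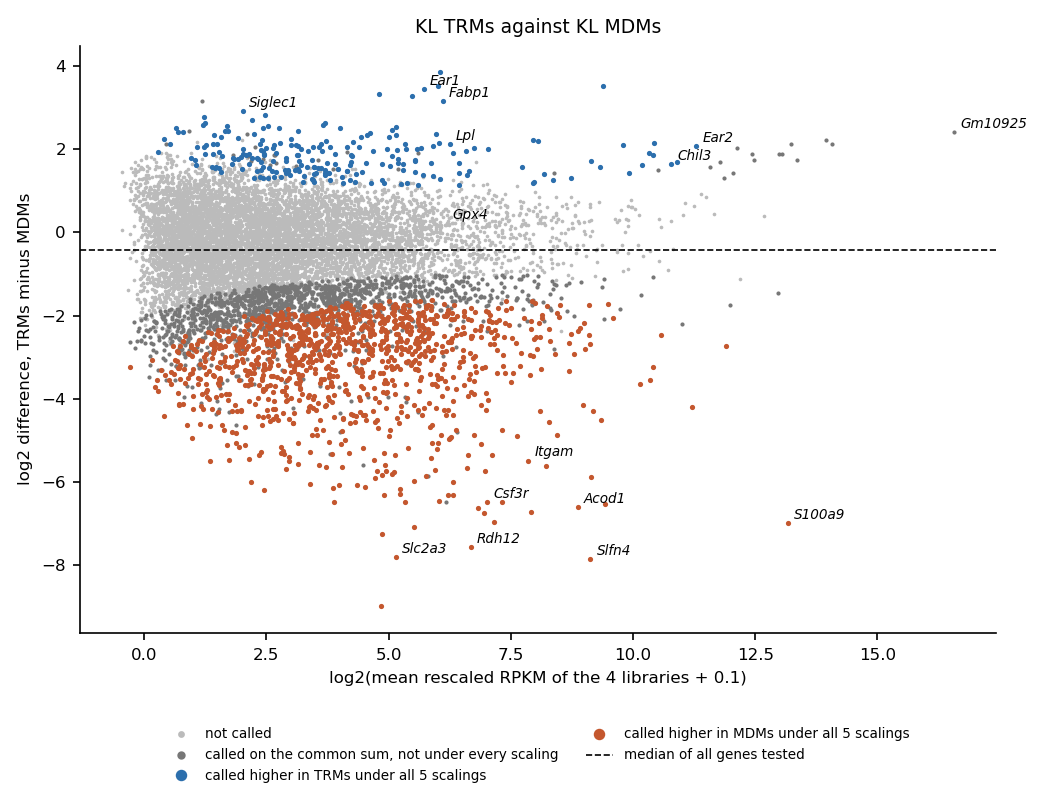
Log2 difference, TRMs minus MDMs, of each of the 10401 genes tested against its mean level, with genes called under all 5 scalings colored, a selection of genes labelled and the median of all genes (−0.42) as a dashed line. The 1124 genes higher in MDMs reach −7.86 (Slfn4) and beyond, while the labelled genes higher in TRMs lie at or under 3.45 (Ear1).

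Genes of alveolar macrophage identity were higher in TRMs. Of 26 listed genes 24 were tested, and 17 of these were higher in TRMs and none in MDMs, against 2.47% and 23.1% of all genes, with a median relative difference of 2.03. Chil3, the secreted chitinase-like protein Ym1, was at 2459.9 and 2876 rescaled RPKM in TRMs and at 755 and 965 in MDMs (1.64 ± 0.38 SE, limma adjusted p = 0.00695). Car4, a carbonic anhydrase of the cell surface, was at 364 and 442 against 57.0 and 130.0, and Pparg, which encodes the nuclear receptor of this lineage, at 25.6 and 31.7 against 4.81 and 12.6. Marco, a scavenger receptor for particles, was at 130.3 and 123 against 50.2 and 43.6. All 4 genes were present in MDMs at a lower level, not absent. Siglecf, a surface marker that may have been part of the gate, was at 16.6 and 21.1 against 8.29 and 12.6 and did not pass (adjusted p = 0.136, limma), and neither did Fabp4, Krt79, Krt19, Olr1, Abcg1 and Bhlhe41. With 1 library left out, the median relative difference lay between 1.64 (without MDM library 1) and 2.23 (without MDM library 2). Under all 5 scalings 16 members were called, Cidec being the exception. The count was 4 without TRM library 1, 3 without TRM library 2, 13 without MDM library 1 and 21 without MDM library 2, where 1 member was also called on the MDM side. Lpl was called in each case.

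Lipid handling genes were called in both directions. Of 32 tested genes of lipid uptake, storage and PPARG targets, 7 were higher in TRMs and 3 in MDMs (6 and 3 under all 5 scalings), against 2.47% and 23.1% of all genes, with a median relative difference of 0.96. Lpl, the lipoprotein lipase, was at 118 and 129 rescaled RPKM in TRMs and at 23.4 and 33.9 in MDMs (2.12 ± 0.36 SE, limma adjusted p = 0.00105), and Lipa, the lysosomal lipase, at 42.1 and 55.7 against 14.2 and 17.7. Angptl4, a lipase inhibitor induced by PPAR receptors, Acot1, Acaa2, Cidec and Nceh1 were the others on this side. The 3 genes on the MDM side act in triglyceride synthesis and cholesterol efflux: Dgat1 was at 4.61 and 8.53 against 57.3 and 65.3, Dgat2 at 0.865 and 1.55 against 18.4 and 15.3, and Abca1 at 0.603 and 0.819 against 13.1 and 9.81. Storage and uptake genes such as Plin2 (205 and 275 against 192 and 151) and Cd36 (28.9 and 48.1 against 23.1 and 32.5) did not pass the test. With quantile scaling 16 were higher in TRMs, when 1131 of 10401 genes were. Abca1 was under 1 RPKM as deposited in both TRM libraries and passed the filter only through the MDM libraries where it is high. Counts on the TRM side were 3, 2, 5 and 11 without TRM library 1, TRM library 2, MDM library 1 and MDM library 2. Among 18 genes of the lipid-associated macrophage state, 3 were higher in TRMs (Lpl, Lipa and Anxa5) and Apoe in MDMs, and Trem2 was at 12.3 and 11.9 against 5.93 and 11.9. The TRM count of this list was 1 without either TRM library, and Apoe was not called under all 5 scalings.

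Genes of antigen presentation through MHC class II were called mostly on the TRM side. Cd80 and Cd86 of the same list stood higher in MDMs. Of 13 tested genes, 7 were higher in TRMs and 2 in MDMs (6 and 1 under all 5 scalings), where all genes gave 2.47% and 23.1%, with a median relative difference of 1.91. Cd74, the invariant chain that loads class II molecules, was at 1614 and 1838 rescaled RPKM in TRMs and at 378 and 823 in MDMs (1.63 ± 0.43 SE, limma adjusted p = 0.0137). H2-Eb1 was at 879.6 and 981 against 193 and 501, and Ciita, the class II transactivator, at 3.16 and 4.89 against 0.676 and 1.45. In each, MDM library 2 lay between MDM library 1 and the TRMs. Cd80 went the other way, at 2.84 and 4.52 against 30.8 and 25.3 (−2.93 ± 0.41 SE), and Cd86 was at 5.37 and 4.04 against 9.08 and 15.9. H2-Oa and H2-Ob were in the TRM table alone. The median was 1.18 without MDM library 1. On the TRM side, no member was called without TRM library 1 or without TRM library 2, 2 were without MDM library 1, and 10 were without MDM library 2. H2 genes are close copies of each other, and their single levels are uncertain.

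Receptors for particles and dying cells were also called in both directions. In the list of scavenger and phagocytic receptors, 5 of 19 tested were higher in TRMs and 2 in MDMs (4 and 2 under all 5 scalings), against 2.47% and 23.1% of all genes. Mertk and Axl, kinases that bind dying cells through GAS6, were at 23.8 and 35.5 against 6.02 and 10.9 and at 68.6 and 90.5 against 12.1 and 30.7. Colec12, a collectin receptor, was at 46.4 and 57.0 against 5.995 and 18.1 (2.29 ± 0.48 SE, limma adjusted p = 0.00418), and Marco and Mrc1, the mannose receptor, were the other 2. The MDM side held C-type lectins that sense fungi and dead cells: Clec4d was at 13.9 and 11.5 against 417 and 342, and Clec4e at 18.8 and 13.1 against 291 and 184. Clec7a, Clec4n, Cd36 and Sirpa did not pass the test. The 5 calls on the TRM side numbered 0 without TRM library 1 or TRM library 2, whereas Clec4d and Clec4e were called without any 1 library. Of 20 tested cathepsin and lysosome genes, Ctsk and Lyz2 were higher in TRMs and Lamp2 in MDMs, and only Ctsk under all 5 scalings, beside 2.12% of all genes. On the TRM side the count of this list was 6 with trimmed-mean scaling and 8 with quantile scaling, and 14 in KLG4, where 39.5% of all genes were higher in TRMs. Of 8 tested Fc receptor genes, Fcgrt, the neonatal receptor, was higher in TRMs (33.0 and 46.2 against 3.60 and 15.1) and Fcer1g, the signaling chain, in MDMs, 1 gene on each side, and the median relative difference of −0.10 changed sign under 7 alternatives. Ctsk, Lyz2, Lamp2, Fcgrt and Fcer1g were not called without TRM library 1 or without TRM library 2.

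Genes of monocyte-derived macrophage identity were split between the MDM libraries. Of 27 listed genes 21 were tested, 1 was higher in TRMs (Mertk) and 10 were higher in MDMs, of which 4 were so under all 5 scalings, beside 23.1% and 10.8% of all genes. Itgam, Cd14 and C5ar1 were among these, and neutrophils also carry them. Itgam, the CD11b integrin chain, was at 9.42 and 10.1 rescaled RPKM in TRMs and at 547 and 358 in MDMs (−5.49 ± 0.36 SE, limma adjusted p = 1.42e-06) and may have been part of the gate. By contrast, C1qa, a chain of complement C1q, was at 12.3 and 12.5 in TRMs and at 19.5 and 105 in MDM libraries 1 and 2. Apoe was at 297 and 295 against 486 and 2346, and Cx3cr1, the fractalkine receptor, at 4.84 and 3.28 against 6.19 and 47.5. In these genes MDM library 1 was near the TRM libraries and MDM library 2 was far above. The number higher in MDMs was 14 without MDM library 1, 5 without MDM library 2, 3 without TRM library 1 and 4 without TRM library 2. Csf1r, the receptor for CSF1, was at 13.1 and 14.3 against 29.6 and 40.0 and was called on the common-sum scale but not under all 5 scalings. Interstitial and perivascular macrophage genes gave 1 call of 5 tested, which is no more than the share of all genes (23.1%). It was F13a1, at 0.594 and 1.98 against 12.7 and 36.7. That count was 4 without MDM library 1. The median relative difference of this list was −0.75, with −1.50 without MDM library 1, −0.01 without MDM library 2 and −0.48 without TRM library 1.

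**Figure D3:**
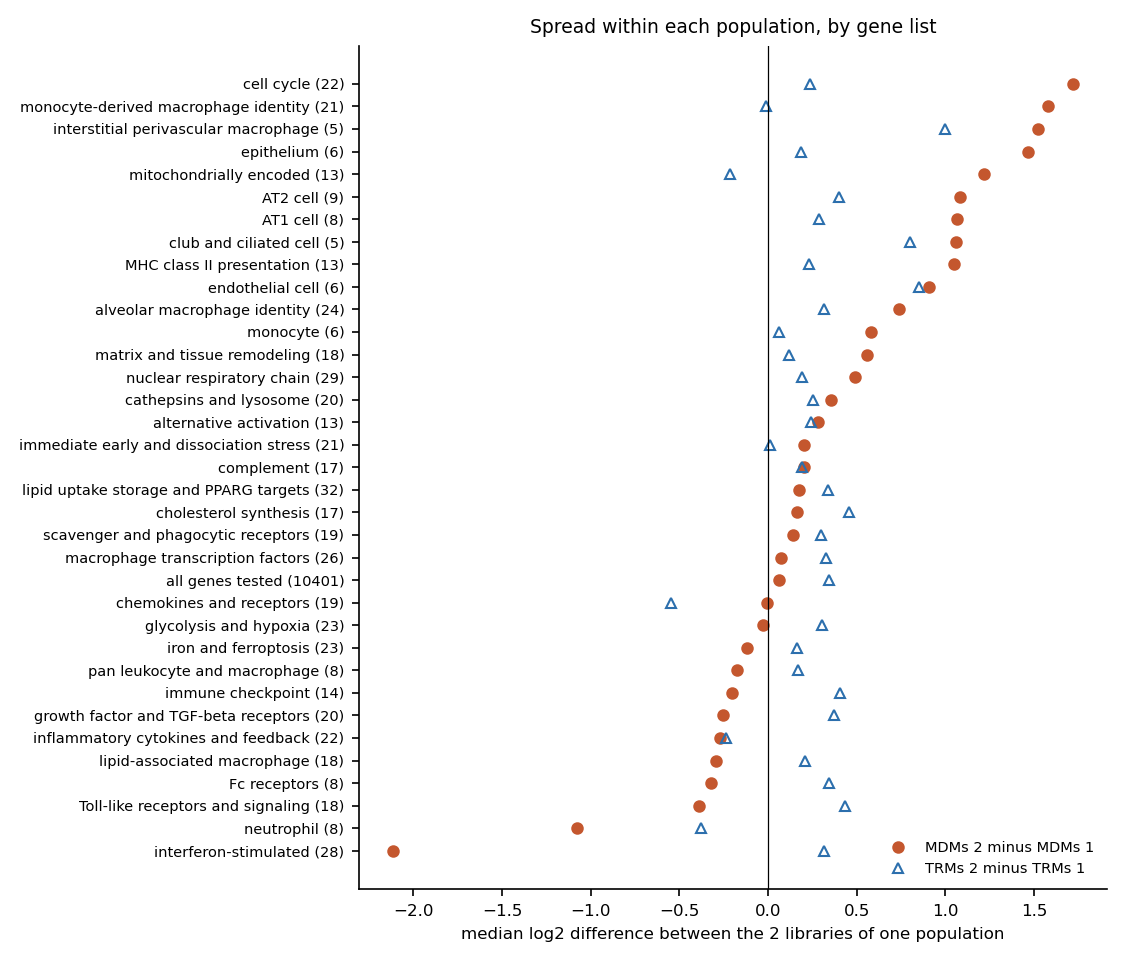
Median log2 difference between the 2 libraries of a population (library 2 minus library 1) for each gene list, TRMs and MDMs as separate symbols. In MDMs the interferon-stimulated list sits at −2.12 and the neutrophil list at −1.08, while cell cycle (1.72) and monocyte-derived identity (1.58) sit on the other side of all genes (0.06).

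The spread inside the MDM pair followed gene groups. Between MDM libraries 2 and 1 the median log2 difference of all genes was 0.06, that of the neutrophil list −1.08 (0 of 8 genes higher in library 2) and that of interferon-stimulated genes −2.12 (1 of 28). It was 1.58 for monocyte-derived identity (16 of 21), 1.72 for cell cycle genes (20 of 22), 1.47 for epithelial markers (6 of 6), 0.74 for alveolar macrophage identity (20 of 24) and 1.05 for class II genes (11 of 13). MDM library 2 was thus nearer to the TRM libraries over all genes as well, with a correlation of log2 values across genes of 0.827 and 0.835 with TRM libraries 1 and 2, against 0.730 and 0.742 for MDM library 1. Of the 221 genes higher in TRMs under all 5 scalings, 202 were higher in MDM library 2 than in MDM library 1, and of the 1124 higher in MDMs, 907 were lower in MDM library 2. Of all 10401 genes, 5538 were higher in MDM library 2. The 2 libraries of a population were correlated at 0.9501 in TRMs and 0.929 in MDMs.

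Growth factor and cytokine receptors were mostly higher in MDMs. Of 20 tested, 14 were higher in MDMs and 0 in TRMs (9 and 0 under all 5 scalings), beside 23.1% and 10.8% of all genes on the MDM side, with a median relative difference of −1.58. Csf2rb, the shared signaling chain of the GM-CSF receptor, was at 29.5 and 44.4 rescaled RPKM in TRMs and at 175 and 123 in MDMs (−2.02 ± 0.38 SE, limma adjusted p = 0.00191), and Csf2ra, its ligand-binding chain, was at 96.7 and 127 against 251 and 194 and did not pass. Il1r2, a decoy receptor for interleukin 1, was at 7.60 and 5.55 against 283 and 258, and Il10ra, the interleukin 10 receptor, at 25.0 and 30.4 against 146 and 155. Both libraries of each population lay close together in these genes. Tgfbr2, the ligand-binding TGF-beta receptor, was at 14.6 and 19.5 against 6.66 and 11.04, without a call (adjusted p = 0.111). The MDM count was 6 without TRM library 1, where Csf2rb lost its call, and 9 without TRM library 2.

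Transcription factors of macrophages were called mostly on the MDM side, as were all genes (23.1% against 2.47% on the TRM side). Of 26 tested, 12 were higher in MDMs (8 under all 5 scalings) and Pparg was the 1 higher in TRMs. Klf2, a factor of resting leukocytes, was at 2.16 and 2.49 rescaled RPKM in TRMs and at 25.2 and 27.7 in MDMs (−3.46 ± 0.40 SE, limma adjusted p = 7.84e-05). Cebpb, a factor of emergency granulopoiesis and inflammatory macrophages, was at 11.4 and 20.5 against 165 and 75.8, Ets2 at 15.9 and 26.3 against 171 and 156, and Stat3, which acts after G-CSF and interleukin 10, at 6.91 and 10.9 against 62.8 and 41.9. Spi1, which encodes PU.1, was at 55.5 and 70.8 against 114 and 115 and did not pass. Irf8, Bhlhe41 and Cebpa were higher in TRMs on average, without a call on this scale. The MDM count was 4 without TRM library 1, and with quantile scaling 5 were higher in TRMs and 9 in MDMs. Without either TRM library or MDM library 1 Pparg was not called.

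Cytokine and chemokine genes were largely higher in MDMs. Of 22 inflammatory cytokine and feedback genes tested, 16 were higher in MDMs and 1 in TRMs (9 and 1 under all 5 scalings), against 23.1% and 2.47% of all genes (10.8% and 2.12%), with a median relative difference of −1.94. Il1rn, the interleukin 1 receptor antagonist, was at 89.1 and 67.1 rescaled RPKM in TRMs and at 625 and 308 in MDMs (−2.50 ± 0.40 SE, limma adjusted p = 7.44e-04). Csf1, the macrophage growth factor, was at 1.51 in both TRM libraries against 157 and 56.5, Vegfa, the angiogenic factor, at 12.4 and 17.9 against 206 and 287, and Ptgs2, which starts prostaglandin synthesis, at 4.66 and 3.66 against 84.4 and 137. Each of these 3 was called under all 5 scalings and without any 1 library. Il1b was high everywhere, at 1005 and 516 against 2989 and 3663, and Il18, a cytokine that alveolar macrophages hold ready as a precursor, was the 1 gene on the TRM side, at 122 and 120.5 against 17.5 and 57.9. Tnf, Il1a and Il6 did not pass. Il18 lost its call without TRM library 1 and without TRM library 2. Il12b was in the TRM table alone (3.30 and 9.12 RPKM as deposited) and Il10 in the MDM table alone (2.43 and 3.83). The MDM count was 11, 9, 14 and 18 without TRM library 1, TRM library 2, MDM library 1 and MDM library 2.

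Of 19 tested chemokine and receptor genes, 11 were higher in MDMs and 1 in TRMs (7 and 1 under all 5 scalings), against 23.1% and 2.47% of all genes. Cxcl2, a ligand of CXCR2, was at 336 and 175 rescaled RPKM in TRMs and at 5246 and 3755 in MDMs (−4.19 ± 0.42 SE, limma adjusted p = 2.56e-05), and Ccl3, which draws monocytes and lymphocytes, at 30.1 and 14.2 against 979.5 and 372. Ccr1, a receptor of neutrophils and monocytes, was at 8.23 and 5.11 against 92.1 and 91.8. Ccl17, a ligand of CCR4, was the gene on the TRM side, at 59.3 and 48.8 against 28.0 and 8.91, and Ccl22, which binds the same receptor, was in the TRM table alone. Ccl17 kept its call only without MDM library 1, and the MDM count was 7 without TRM library 1. Toll-like receptor genes gave 8 of 18 higher in MDMs and none in TRMs (6 and 0 under all 5 scalings, where all genes gave 10.8% and 2.12%). Of these 18, 2 passed the filter only through the MDM libraries and 1 only through the TRM libraries. Tlr13, which senses bacterial ribosomal RNA, was at 2.85 and 3.79 against 26.1 and 19.2, and Irak3, an inhibitor of the pathway, at 6.62 and 5.32 against 87.3 and 37.6. Tlr7, which senses single-stranded RNA, was at 3.51 and 6.48 against 1.43 and 1.98, without a call. The MDM count of this list was 5 without TRM library 1. Of 17 tested complement genes, 5 were higher in MDMs, C3 and C5ar1 among them, and C4b and Itgax in TRMs (2 and 2 under all 5 scalings), beside 23.1% and 2.47% of all genes. C3 was at 62.0 and 80.1 against 606 and 159, and C4b at 11.3 in both TRM libraries against 4.62 and 3.90. Leaving out TRM library 1 gave 1 complement gene higher in MDMs and leaving out TRM library 2 gave 3, and no complement gene was called on the TRM side without TRM library 1 or without TRM library 2.

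Interferon-stimulated genes were higher in MDMs, and MDM library 1 set much of the size. Of 28 tested, 17 were higher in MDMs and none in TRMs (8 and 0 under all 5 scalings), beside 23.1% and 10.8% of all genes on the MDM side. The median relative difference was −1.98, and 3 members passed the filter only through the MDM libraries where they are high. Ifitm3, a membrane protein that restricts viral entry, was at 3.44 and 2.95 rescaled RPKM in TRMs and at 149 and 80.2 in MDMs (−5.06 ± 0.41 SE, limma adjusted p = 5.55e-06), and Irf7, which amplifies interferon output, at 2.47 and 1.85 against 58.5 and 22.6. Both stayed above TRMs in either MDM library. In contrast, Gbp2, a guanylate-binding protein induced by interferon gamma, was at 49.8 and 73.0 in TRMs and at 1285 and 76.2 in MDM libraries 1 and 2, and Gbp5 was at 13.97 and 10.8 against 243 and 9.93. Neither passed the test (adjusted p = 0.069 and 0.165). Without MDM library 1 the median relative difference was −0.69 with 8 members called, without MDM library 2 it was −3.45 with 23 called, and without TRM library 1 or 2 the counts were 6 and 9.

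Immune checkpoint genes gave 10 of 14 higher in MDMs and 1, Siglec1, in TRMs (6 and 1 under all 5 scalings), against 23.1% and 2.47% of all genes. The median relative difference was −1.91, and 1 member passed the filter only through the MDM libraries where it is high. Lilrb4a, an inhibitory receptor of myeloid cells, was at 255 and 266 rescaled RPKM in TRMs and at 2764 and 2175 in MDMs (−3.23 ± 0.36 SE, limma adjusted p = 6.19e-05). Cd274, which encodes PD-L1, was at 50.8 and 64.4 against 1069 and 151, was called on the common-sum scale and lost the call under at least 1 other scaling and without either TRM library. Vsir, the receptor VISTA, was at 5.45 and 9.32 against 49.3 and 33.8, and Cd24a, whose protein is a ligand of sialic acid receptors, at 17.1 and 14.2 against 213 and 103. Siglec1 was not called without either TRM library, and the MDM count was 4 without TRM library 1. In the list of alternative activation, 3 of 13 were higher in TRMs and 6 in MDMs (2 and 3 under all 5 scalings), against 2.47% and 23.1% of all genes: Chil3, Mrc1 and Ccl17 on one side, and Il4ra, Tgm2, Ccl24, Pdcd1lg2 and F13a1 among those on the other. Tgm2, a transglutaminase, was at 62.6 and 82.9 against 279 and 252. The median relative difference of this list was 0.33 and changed sign, to −0.36, without MDM library 2, and without either TRM library no member was called on the TRM side, while the MDM count was 3 without TRM library 1.

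Matrix and remodeling genes were higher in MDMs in 10 of 18 tested and in TRMs in 1 (8 and 1 under all 5 scalings), against 23.1% and 2.47% of all genes (10.8% and 2.12%), with a median relative difference of −1.35. Thbs1, thrombospondin, was at 4.83 and 8.57 rescaled RPKM in TRMs and at 163 and 299 in MDMs (−5.08 ± 0.42 SE, limma adjusted p = 7.17e-06), and Plaur, the urokinase receptor, at 68.8 and 83.0 against 779.6 and 425. Without TRM library 1 no member was called on the TRM side and the MDM count was 6, and without MDM library 2 the median was −0.87. Genes of glycolysis and hypoxia gave 12 of 23 higher in MDMs and none in TRMs (7 and 0 under all 5 scalings), set against the same shares. Members called included transporters and hexokinases: Slc2a1, the transporter GLUT1, was at 6.03 and 5.30 against 46.9 and 29.6, Slc16a3, a lactate exporter, at 2.41 and 1.78 against 49.6 and 52.0, and Hk3, a hexokinase, at 11.8 and 12.6 against 119 and 46.2. The central enzymes Aldoa, Tpi1, Gapdh, Eno1 and Ldha did not pass, Gapdh being at 56.9 and 61.8 against 51.7 and 60.3. The MDM count was 6 without TRM library 1.

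The series centers on Gpx4, the peroxidase that removes lipid peroxides, so genes of iron handling and ferroptosis were examined. Gpx4 itself was at 74.8 and 80.5 rescaled RPKM in TRMs and at 54.7 and 80.6 in MDMs of these KL tumors (0.22 ± 0.36 SE, limma adjusted p = 0.688), and the populations overlapped. Of 23 tested genes, 9 were higher in MDMs and 1, Cybb, in TRMs (4 and 1 under all 5 scalings). Of all genes, 23.1% and 2.47% were, and 10.8% and 2.12% under all 5 scalings, so the counts under all scalings were close to those of genes at large. Slc7a11, the cystine transporter that feeds glutathione synthesis, was at 5.10 and 4.81 against 64.7 and 62.8 (−3.66 ± 0.37 SE, adjusted p = 2.75e-05), Slc11a1, a phagosomal metal exporter, at 1.37 and 1.83 against 70.7 and 66.5, and Txnrd1, thioredoxin reductase, at 43.0 and 52.3 against 254 and 230.3. Each kept its call without any 1 library. Cybb, the oxidase subunit gp91phox, was at 99.2 and 140.5 against 55.6 and 51.4 and lost its call without TRM library 1 and without TRM library 2. The MDM count was 3 without TRM library 1 and 5 without TRM library 2.

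Immediate early and dissociation stress genes, which rise while tissue is digested, gave 16 of 21 higher in MDMs and none in TRMs (10 and 0 under all 5 scalings), beside 23.1% and 10.8% of all genes on the MDM side, with a median relative difference of −1.39. Ier3 was at 13.6 and 10.5 rescaled RPKM in TRMs and at 193 and 176 in MDMs, and Dusp1, a phosphatase that ends MAP kinase signaling, at 23.8 and 24.0 against 236 and 219. Fos, by contrast, was at 83.5 and 117 against 100.4 and 160.0, without a call (limma adjusted p = 0.524). The count was 8 without TRM library 1. Like the cytokine, chemokine and growth factor receptor lists above, this list lay on the MDM side. Its part in their differences was not tested. Mitochondrially encoded genes ran the other way, with 9 of 13 higher in TRMs on the common-sum scale and 1, mt-Nd3, under all 5 scalings, against 2.47% and 2.12% of all genes. mt-Co1 was at 30172 and 21714 against 3723 and 7933. No mitochondrially encoded gene was called without TRM library 1 or without TRM library 2.

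**Figure D4:**
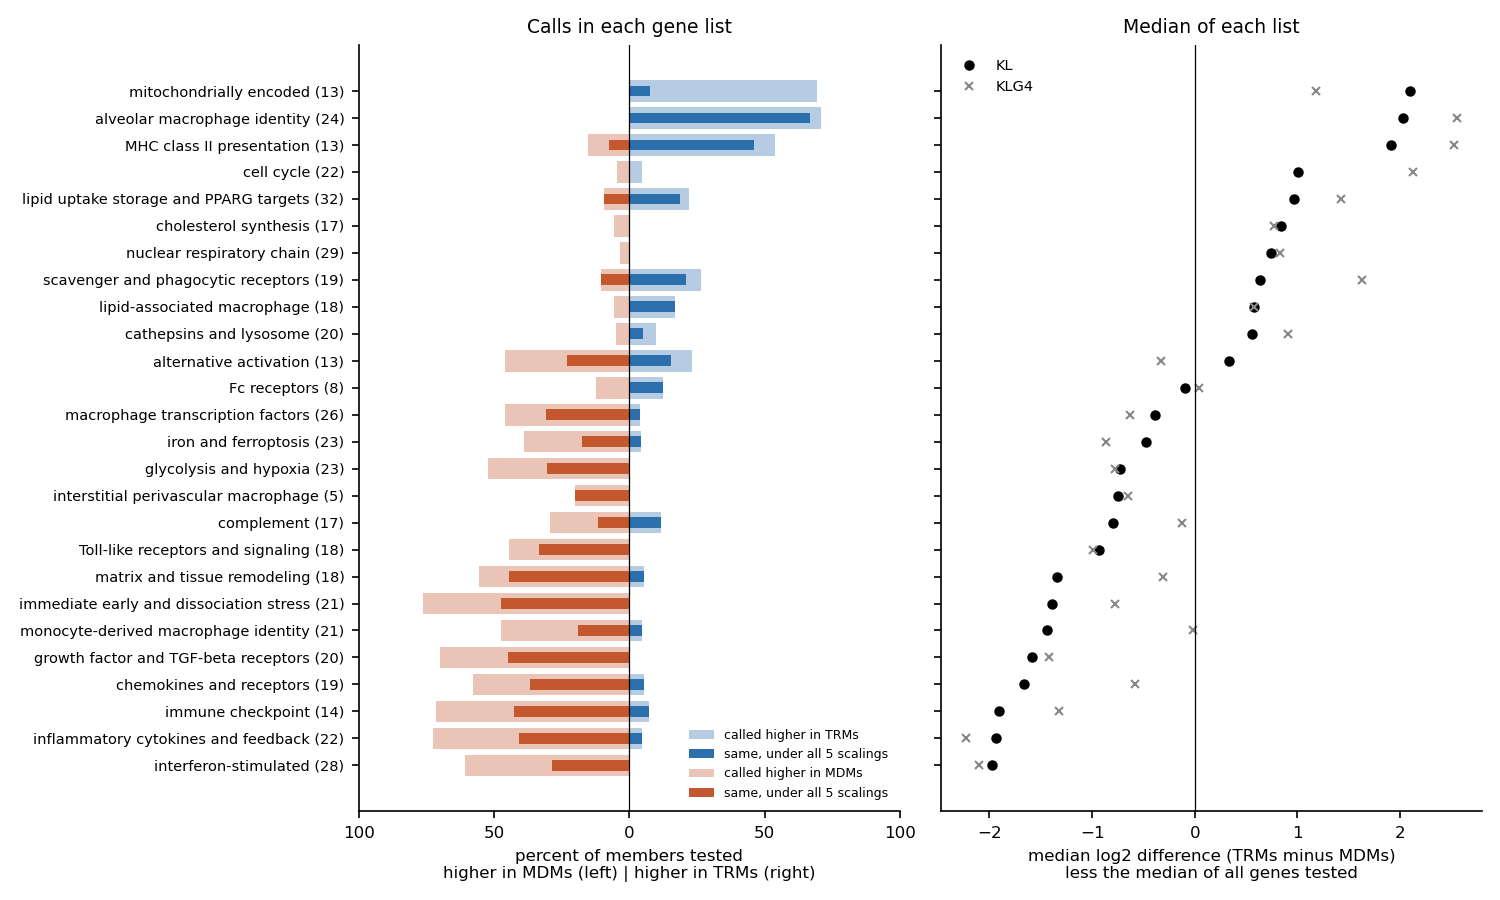
For each gene list, the percent of its tested members (their number in parentheses) called higher in TRMs (right) or in MDMs (left), and beside it the median log2 difference less that of all genes, in KL and in KLG4. Alveolar macrophage identity (2.03) and class II presentation (1.91) lie to the TRM side and interferon-stimulated (−1.98) and inflammatory genes (−1.94) to the MDM side.

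To see whether the KL differences held in other libraries of the same populations, the KLG4 libraries, which share no sample with the KL ones, were tested in the same way. There, 4220 of 10680 genes were higher in TRMs (39.5%) and 3025 in MDMs (28.3%), with a median log2 difference of 0.22. Of 256 KL calls higher in TRMs that were tested in KLG4, 248 (96.9%) were called in the same direction, which made 5.88% of the KLG4 calls. Of 2379 higher in MDMs, 2130 (89.5%) were, 70.4% of the KLG4 calls, and 15 were called the other way. With the calls made under all 5 scalings, 214 of 221 and 1090 of 1123 were called in KLG4. These shares stand beside 39.5% and 28.3% of all genes in KLG4.

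The difference between the genotypes was tested as an interaction, the TRM minus MDM difference in KL less that in KLG4, over 11044 genes. No gene passed (limma, lowest adjusted p = 0.120), and 2173 genes had an unadjusted p under 0.05. Leaving out 1 library gave 29 genes without TRM library 2 of KL, 1149 without MDM library 1 of KL, 2 without MDM library 2 of KL and 1 without MDM library 1 of KLG4. Among the named genes, Adam8 had the lowest unadjusted p, with a difference of −6.45 in KL and −3.54 in KLG4 (adjusted p = 0.120). Median relative differences in KLG4 were 2.56 for alveolar macrophage identity, 2.53 for class II presentation, 1.42 for lipid handling, −2.23 for inflammatory cytokines, −2.10 for interferon-stimulated genes and −6.80 for neutrophil markers. Other lists were nearer to all genes in KLG4: matrix at −0.31 (−1.35 in KL), chemokines at −0.59 (−1.66), complement at −0.13 (−0.79) and immediate early genes at −0.77 (−1.39). Alternative activation went from 0.33 in KL to −0.33. List medians were not tested between genotypes. For monocyte-derived identity the median was −1.44 in KL and −0.02 in KLG4, but the KL value was −2.07 without MDM library 1 and −0.28 without MDM library 2. C1qa, with −1.86 in KL, had 0.07 in KLG4 (interaction adjusted p = 0.261).

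**Figure D5:**
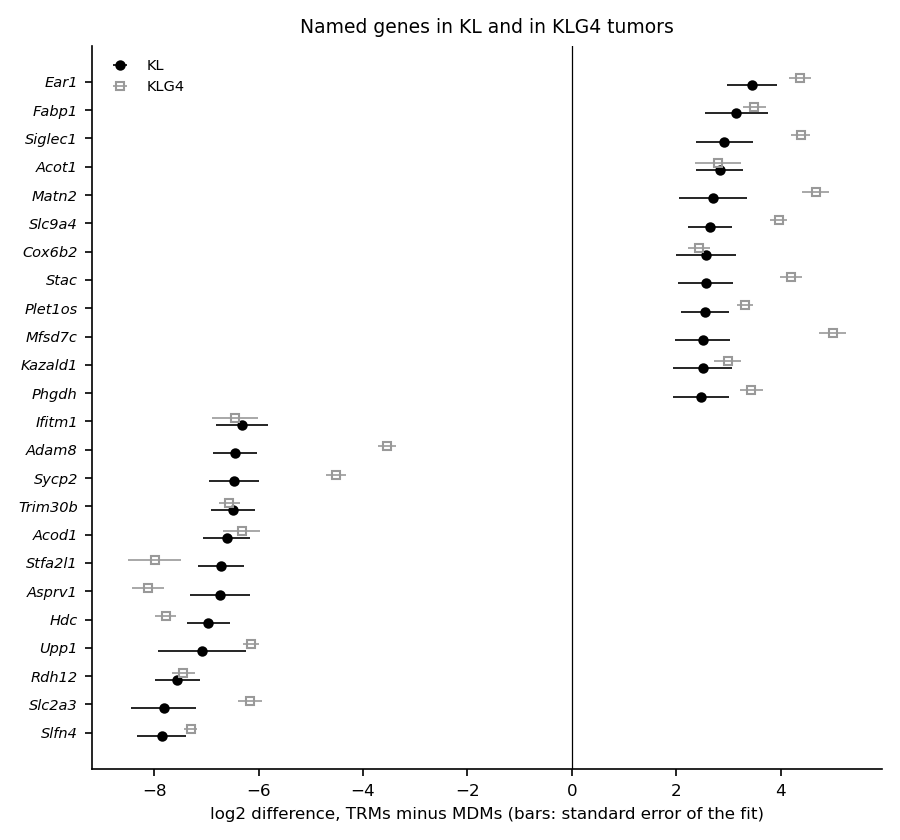
Log2 difference, TRMs minus MDMs, with its standard error for each named gene in KL and in KLG4 tumors. All 24 named genes lie on the same side of 0 in both genotypes, with Ear1 at 3.45 and 4.37 and Slfn4 on the MDM side.

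Genes listed in one table alone could not be tested. At 1 RPKM or more in both KL libraries, 278 genes were in the TRM table alone and 445 in the MDM table alone, of which 40 and 143 reached 5 RPKM. Leaving aside predicted, noncoding and antigen receptor symbols, the highest of the TRM table by mean was the Y-linked Eif2s3y, at 12.3 and 14.7 RPKM as deposited, with Ddx3y the third. Other genes of that table were Acaa1b, a peroxisomal thiolase of fatty acid oxidation, at 9.38 and 16.4 RPKM as deposited, and Coro6, a coronin, at 7.34 and 14.7. Among those of the MDM table were Stfa3, a stefin, at 41.1 and 16.6, Ifitm6 at 36.8 and 12.8, Olfm4, a neutrophil granule protein, at 32.2 and 17.2, and Il12a, a subunit of interleukin 12, at 23.2 and 1.87. These genes were chosen after their values were seen.

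The motif letters were counted over the windows of 250 bases before each RefSeq start. C/EBP letters (TTGCNNAA, either strand) were in 16.1% of 180 promoters of genes higher in TRMs under all 5 scalings, in 8.59% of 978 promoters of genes higher in MDMs, in 7.86% of 9316 promoters of genes tested and in 9.56% of all 32851 promoters. AP-1 letters (TGANTCA) were in 7.22%, 6.44%, 4.44% and 6.75% of the same sets, ETS letters (GAGGAAGT) in 3.89%, 4.50%, 2.85% and 2.44%, the interferon-response pattern (GAAANNGAA) in 7.22%, 6.13%, 6.30% and 7.13%, NF-kB letters (GGGNNTTTC) in 5.56%, 4.70%, 3.65% and 3.72%, the MAF motif (TGCTGAC) in 5%, 2.96%, 3.09% and 3.81%, and the PPAR motif (AGGTCA) in 13.9%, 11.6%, 10.9% and 14.02%. These shares are a description, since promoters of one gene overlap and no test was run on them.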

How the data were processed

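RNA sequencing libraries of sorted lung cells were analysed from the values as deposited. Per the submitters' processing notes and the study's methods, the authors trimmed reads with Trim Galore (version 0.6.4), aligned them with HISAT2 (2.0.5) to an Ensembl release of the mouse genome, counted them per gene with featureCounts (2.0.0) and deposited RPKM values in 1 table per population. The headers of the 2 macrophage tables do not name the unit, and their values were whole reads once multiplied by gene length and depth, as RPKM are. The tables hold different genes, and a gene absent from one table has no value there. The authors' columns of fold changes and p-values (their log2 fold change, mean log2 level, test statistic, p-value and adjusted p-value) were not used. Groups came from the sample titles, and the tables held no column without a sample.

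RPKM values of the 2 tables were joined by gene name (13526 names in the TRM table, 13388 in the MDM table), with repeated and 19 date-like names dropped per table, and rescaled to a common sum over 12147 joined genes without mt- genes (factors 0.833, 0.913, 1.22 and 1.13 for TRM libraries 1 and 2 and MDM libraries 1 and 2). Genes reaching 1 RPKM in 2 or more libraries were tested two-sided with limma (3.58.1, R 4.3.3) on log2(rescaled RPKM + 0.1) with a mean-variance trend, no covariate and Benjamini-Hochberg adjustment over all genes tested. A pseudocount of 0.1 understates the difference of low genes. Population and deposited table coincide, so a difference between tables cannot be told apart from one between populations. Because the library kit was non-directional, overlapping genes are uncertain.

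Depth was recovered from the steps of the RPKM values with gene length: 100% of values below 2000 reads were whole within 0.05 of a read, and 17.4% to 27.0% of counts below 30 were odd in the 4 libraries, so counts were mostly even and counting noise may be larger than the totals imply. Over genes with at least 20 reads the chi-square per gene was 32.9 in the TRM pair and 138 in the MDM pair, and all 4 libraries were kept as separate samples.

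The naming rule took the 12 largest differences in each direction among genes with an adjusted p under 0.05 and no overlap between populations. A mean of at least 5 rescaled RPKM in the higher population was required. Left out were symbols of predicted genes, RIKEN clones, other clones, pseudogenes, microRNAs, small nucleolar RNAs and antigen receptor segments, and marker genes of other cells. Antisense symbols such as Plet1os were not left out. Phgdh (2.48) was the last taken and Mettl21a (2.45) the first left out on the TRM side, Ifitm1 (−6.32) and Stx11 (−6.31) on the MDM side. Members and lists were chosen with earlier results of these data known. Alternatives covered the pseudocount (0.01 and 1), the filter, the scaling, a fit without the trend, a block for the replicate number, a spread shared with KLG4, limma-voom on the recovered reads and leaving out each library. The fitting code was also run on simulated counts with the same spread in every library. The TRM and MDM pairs differ in spread, so no conclusion was drawn from that run. Some alleles and genes are not reported here. Python 3.11.15, pandas 2.3.3 and matplotlib 3.10.9 were used. Promoter windows are RefSeq sequences on GRCm38.p6.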

Additional observations from a re-analysis of the deposited data

How the results depend on the processing

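The number of genes higher in TRMs was 257 on the common-sum scale, 407 with values as deposited, 1131 with quantile scaling, 595 with trimmed-mean scaling, 659 with the nuclear copies left out of the sum, 583 with a spread shared with KLG4 and 1044 with limma-voom on recovered reads, and 8 to 856 when 1 library was left out. The number higher in MDMs was 2403, and 1426, 1313, 1408, 1125 and 1595 under the same 4 scalings and limma-voom, 3279 with the shared spread, and 742 to 2459 with 1 library left out. The total of 2660 was 3862 with the shared spread and ran from 758 to 3315 with 1 library left out. The cause of these shifts beyond the scaling itself and the smaller number of libraries was not tested. A lone library left in a population is assumed to vary like the other population. The interaction with genotype gave 0 calls, also with the nuclear copies left out of the sum (an alternative chosen after seeing the data), and 0 to 1149 with 1 library left out. With the replicate number as a replicate block, 2319 genes were called (222 higher in TRMs, 2097 in MDMs). Same-numbered libraries did not deviate together (r = −0.05), so the numbers were not taken to pair them. Over the 24 named genes and 16 settings, 0 of 375 values were reversed and 17 lost the call, each with 1 library left out. Genes under 1 RPKM in both TRM libraries, 14 of the list members tested among them, passed the filter only through the MDM libraries where they are high, and were not tested without an MDM library. Of these 14, 3 were interferon-stimulated and 2 Toll-like receptor genes, and other lists with such members held 1 each. Another 4 list members passed only through the TRM libraries, 1 each in the Toll-like receptor, lipid uptake, transcription factor and matrix lists. Among 26 lists, the sign of the median relative difference changed in 2, the Fc receptors and alternative activation. With 2 libraries a group and 9.14 to 18.6 megareads, genes near 1 RPKM rest on few reads. A missing call there is no sign of equal levels, and detection by level was not measured.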

Other observations

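Gene groups without a clear call completed the picture of the comparison. Nuclear genes of the respiratory chain had a median relative difference of 0.74 in KL and 0.83 in KLG4, yet 0 of 29 were higher in TRMs on the common-sum scale and 1 was higher in MDMs, and with quantile scaling 11 were higher in TRMs. Of all genes, 2.47% were higher in TRMs and 23.1% in MDMs on the common-sum scale, and 1131 of 10401 were higher in TRMs with quantile scaling. Cholesterol synthesis had a median relative difference of 0.84, with 0 of 17 higher in TRMs and 1 in MDMs, and 6 were higher in TRMs with quantile scaling. For both lists the calls therefore depended on the scaling.

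Cell cycle genes had a median relative difference of 1.00 in KL (0.31 without MDM library 1 and 2.05 without MDM library 2) and 2.12 in KLG4, with 1 of 22 called higher in TRMs, Ccnb2, and 1 in MDMs, Cdt1, and neither under all 5 scalings. Top2a, the topoisomerase of dividing cells, was at 7.30 and 8.71 rescaled RPKM in TRMs and at 1.75 and 8.44 in MDM libraries 1 and 2, and Birc5, survivin, at 7.30 and 8.22 against 1.08 and 8.59. Mki67 did not follow, at 23.8 and 24.2 against 19.3 and 17.7. Without MDM library 2, 9 members were higher in TRMs, when the count over all genes was 856 in place of 257. The sum of epithelial markers, 70.9 and 241 RPKM in MDM libraries 1 and 2, differed in the same direction as Top2a and Birc5, and its part in those values was not tested.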
